A study of Mus musculus with 84 samples.

Results

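The regions described here are sites of the mouse colon epithelium where HNF4α, a nuclear receptor that binds DNA, gave a ChIP-seq peak in all 4 libraries made for it, and where at least 1 library of the histone mark H3K27ac also had a peak. The sites were chosen by those peaks: the 4 HNF4α lists were merged wherever peaks overlapped by at least 1 bp, which gave 49525 sites, and 8272 of them met both conditions. Another 222 sites had HNF4α in all 4 libraries and H3K27ac in none of its 23 lists. Membership is therefore no result, and neither is the presence of HNF4α or of at least 1 H3K27ac peak at a site.

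All mice were C57BL/6. Male and female mice were kept long-term on a high fat diet (HFD) or a low fat diet (LFD), and their colon epithelium gave 3 H3K27ac and 3 H3K4me1 libraries for each sex and diet. HNF4α was profiled in males only, in 2 HFD and 2 LFD libraries. A further set of male mice, raised germ-free, received fecal bacteria from male donors on the HFD (HFB) or the LFD (LFB) and were fed the HFD or the LFD themselves, which gave the groups HFDHFB, HFDLFB, LFDHFB and LFDLFB. Each recipient group had 3 H3K27ac libraries, apart from 2 in HFDHFB, and 3 RNA-seq libraries. For ChIP-seq the epithelium was shaken off the colon in EDTA, whereas for RNA-seq cells were scraped from it. No HNF4α library of the recipients was used here, so binding and expression come from different mice.

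HNF4α is a transcription factor of the nuclear receptor family that is made in liver, kidney, pancreas and the epithelium of the intestine. It binds DNA as a dimer, at a pair of half-sites spaced by a single base. The 9-base core read here holds the end of the first half-site, that base and the whole second half-site. In the intestine HNF4α is known for the genes of absorptive cells, among them those of the brush border, lipid handling and ion transport. H3K27ac marks active enhancers and promoters, and H3K4me1 marks enhancers whether active or not.

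A few sites show what was bound. The following stretches, in mm9 coordinates, are 101 bp long and centred on the mean of the 4 peak centres. They belong to genes of ion transport, lipid handling, the brush border and transcription, named by the rule given with the methods, and were chosen among the sites with a core within 25 bp of the centre. Each is written 5′ to 3′ on the strand that reads the core as listed below, and capitals mark each 9-base HNF4α core.
Slc26a3 (chr12:32122882-32122982, plus strand): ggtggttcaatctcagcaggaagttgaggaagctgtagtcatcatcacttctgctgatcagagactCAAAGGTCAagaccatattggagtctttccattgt
Slc26a3 (chr12:32082722-32082822, plus strand): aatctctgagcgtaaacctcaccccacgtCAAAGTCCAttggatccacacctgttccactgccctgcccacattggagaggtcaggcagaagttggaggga
Slc26a3 (chr12:32147603-32147703, plus strand): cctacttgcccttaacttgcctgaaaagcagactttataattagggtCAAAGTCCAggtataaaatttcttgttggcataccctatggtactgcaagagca
Aqp8 (chr7:130609722-130609822, minus strand): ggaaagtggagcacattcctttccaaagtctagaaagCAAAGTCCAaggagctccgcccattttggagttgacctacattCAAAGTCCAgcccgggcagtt
Ehhadh (chr16:21788750-21788850, plus strand): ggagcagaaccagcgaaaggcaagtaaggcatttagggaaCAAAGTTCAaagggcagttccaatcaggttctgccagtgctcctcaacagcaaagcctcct
Fabp2 (chr3:122579969-122580069, plus strand): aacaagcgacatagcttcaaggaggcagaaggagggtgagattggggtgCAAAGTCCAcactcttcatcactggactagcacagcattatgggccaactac
Vil1 (chr1:74481362-74481462, minus strand): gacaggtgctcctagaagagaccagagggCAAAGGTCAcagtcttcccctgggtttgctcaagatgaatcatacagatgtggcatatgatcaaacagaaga
Nr3c2 (chr8:79434780-79434880, minus strand): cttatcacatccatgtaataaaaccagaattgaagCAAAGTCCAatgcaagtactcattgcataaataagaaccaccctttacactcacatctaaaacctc
Klf3 (chr5:65178028-65178128, plus strand): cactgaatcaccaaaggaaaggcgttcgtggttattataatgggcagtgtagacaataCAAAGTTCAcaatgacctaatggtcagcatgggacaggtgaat
Klf5 (chr14:99680373-99680473, minus strand): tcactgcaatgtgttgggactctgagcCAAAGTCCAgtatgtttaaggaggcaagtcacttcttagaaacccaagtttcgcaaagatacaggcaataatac
Hnf4g (chr3:3583033-3583133, plus strand): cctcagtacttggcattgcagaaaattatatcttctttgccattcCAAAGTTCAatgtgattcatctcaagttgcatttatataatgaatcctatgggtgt

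The Slc26a3 stretches lie near the chloride and bicarbonate exchanger of colonocytes, the first 0.152 kb upstream of a transcription start site (TSS). The others are intronic, and the gene has several annotated starts. The Aqp8 stretch, in an intron of the gene of a water channel, holds 2 cores, and the 200 bp around that site's centre hold 3. The core of the Fabp2 site, at −17.97 kb from the TSS (upstream) of the gene of an intestinal fatty acid-binding protein, is 3 bp from the site's centre. The Hnf4g core, in an intron of the gene of the other intestinal HNF4 protein, is 1 bp from the centre of its site. H3K27ac was listed at the first Slc26a3 site in all 23 lists and at the Aqp8 site in 14. H3K4me1 was listed in 11 of 12 at both.

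Of the 4 spellings searched on both strands in the central 200 bp, CAAAGTCCA was in 938 sites (11.3%), CAAAGGTCA in 554 (6.70%), CAAAGTTCA in 546 (6.60%) and CAAAGGCCA in 140 (1.69%). In windows of the same length 1000 bp to either side, each of them was found in 0.320% to 0.393%. At least 1 core was present in 2123 of the 8272 sites, or 25.7% (95% Clopper-Pearson interval 24.7% to 26.6%), against 1.42% (1.25% to 1.61%) of the flanking windows. The intervals in this text cover counting error only. The 2212 cores lay a median of 20 bp from the centre of their site, 61.2% of them within 25 bp and 3.75% beyond 75 bp. There were 2040 sites with 1 core and 83 with more, up to 4. The remaining sites have none of these letters in the window, which says nothing about how HNF4α was held there.

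**Figure D1:**
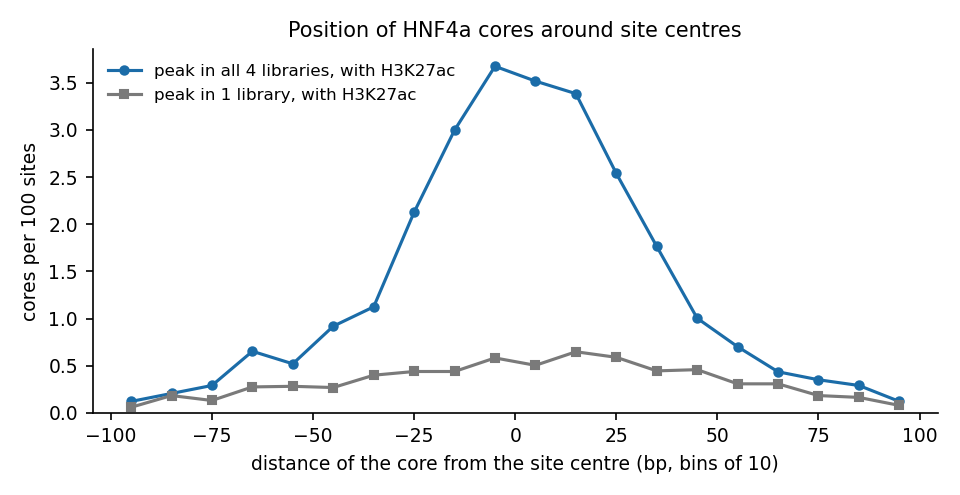
Number of HNF4α cores per 100 sites (y axis) by distance from the site centre in bins of 10 bp (x axis), for sites with a peak in all 4 HNF4α libraries (circles) and in 1 library (squares), all with H3K27ac. The circles reach 3.68 per 100 sites in the bin just before the centre, where the squares stand at 0.582.

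The share of sites with a core went with the number of HNF4α libraries that had a peak. Among sites with H3K27ac it was 6.58% (95% interval 6.19% to 6.98%) for the 15284 sites of 1 library, 11.6% for the 7256 sites of 2 and 16.4% for the 5178 sites of 3. The 222 sites in all 4 libraries without H3K27ac had a core in 45.0% (38.4% to 51.8%). Nearness to genes moved the other way: a TSS was found within 1 kb for 27.2% of the 1-library sites (26.4% to 27.9%) and for 12.3% of the 4-library sites (11.6% to 13.1%). These values describe classes drawn from the same peaks and were not tested. The GC content of the 4-library sites had a median of 47.0%, against 45.25% at 1000 bp away, and that of the sites without H3K27ac was 42.5%.

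**Figure D2:**
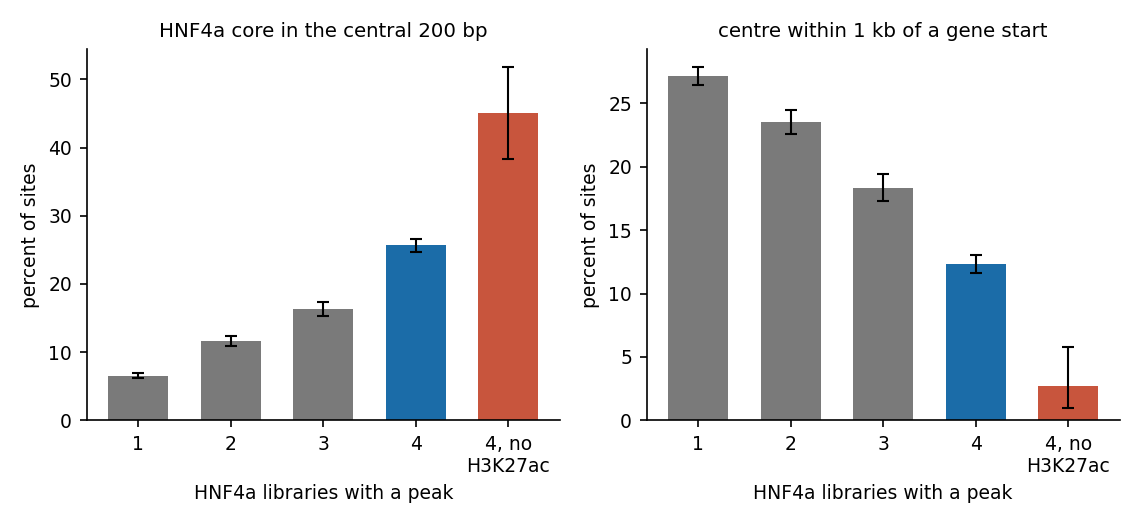
Percent of sites with an HNF4α core in the central 200 bp (left) and with a centre within 1 kb of a TSS (right), by the number of HNF4α libraries with a peak (x axis). Bars are shares and lines 95% Clopper-Pearson intervals. The core share rises from 6.58% to 25.7% among sites with H3K27ac and is 45.0% in the 222 sites without it.

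Motifs of other factors of the colon epithelium were searched in the same windows, with spellings given in the methods. A motif of CDX, the caudal factors of the hindgut, was in 17.4% of sites against 6.61% of flanking windows. AP-1, the Fos and Jun family, stood at 12.9% against 3.64%, KLF at 8.0% against 2.70% and ETS at 14.2% against 8.41%. GATA stood at 13.5% against 11.3%. HNF1 was found in 1.20% and FOXA in 5.15% of sites, against 0.592% and 2.62%. Sites with an HNF4α core carried a CDX motif in 16.1% and AP-1 in 10.9%, and sites without a core in 17.9% and 13.5%. None of the 8 motif groups was present in 2669 sites (32.3%).

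Most of the sites were far from gene starts. The median distance from a site's centre to the nearest protein-coding TSS of GENCODE vM1 was 15.4 kb, with quartiles of 4.24 and 43.1 kb, and 27.5% (95% interval 26.5% to 28.5%) were within 5 kb. By position, 3757 centres were intergenic, 3464 intronic, 252 exonic and 799 in promoters, taken as 1000 bp before to 100 bp after a TSS. The 4 peak centres of a site lay within a median of 42 bp of each other. There were 155 sites on the X chromosome and none on the Y.

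Promoter and distal sites differed in their marks. H3K4me1 was listed in all 12 libraries at 49.1% of promoter sites (45.5% to 52.6%) and at 94.3% of intergenic sites (93.5% to 94.999%). H3K27ac, for which only 1 list was required, was present in all 23 lists at 90.4% of promoter sites (88.1% to 92.3%), 67.5% of intronic and 58.7% of intergenic sites. A core was found in 17.4% of promoter sites (14.8% to 20.2%), 22.6% of exonic, 26.99% of intronic and 26.4% of intergenic sites. In the 763 sites with H3K27ac in 1 to 11 lists it was found in 35.8% (32.4% to 39.3%), and in the 5445 sites with H3K27ac in all 23 lists in 23.2% (22.1% to 24.4%).

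The sites were nearest to 4692 genes, of which 2887 had 1 site, 944 had 2, 728 had 3 to 5 and 133 had more than 5. The largest number was 14. Genes with more than 1 site held 65.1% of the sites, and 33.1% of sites lay within 10 kb of another. Klf3 and Klf6, genes of Krüppel-like transcription factors, had 14 each. Tbc1d1, a regulator of glucose transporter traffic, and Nr3c2, the mineralocorticoid receptor, had 13 each. The focal adhesion gene Tns3 and Klf4, a factor of goblet cell and colonocyte maturation, had 12, and the calcium pump gene Atp2b1, Tbl1xr1, Bmp2 and Sp3 had 11. A site was given to the nearest TSS at any distance. Over these 10 genes the nearest site lay from 0.099 kb (Klf3) to 47.8 kb (Klf4) away. The farthest lay from 204 kb (Bmp2) to 850 kb (Tbl1xr1) away. The part of the spacing of genes in these counts was not tested. Klf3 and Tbc1d1 are neighbours, and their sites run from position 64520393 to position 65256292 of chromosome 5. Of the 14 Klf3 sites 3 had a core, while none of the 11 at Bmp2, a ligand of differentiated epithelium, did.

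Groups of genes known from colonocytes often had a site. Over all 22232 genes with a TSS, 4692 had one. Sites were more frequent at genes with more RNA in the recipients. With genes split by level into 10 classes, 43.0% of class 9 and 49.0% of class 10, the highest, had a site. The median levels of the colonocyte lists below fall in these classes. The lists were not compared with genes of equal level. The lists were compiled with results of these data known, and the counts are descriptions. Of 35 intestinal transcription factors 30 had at least 1 site and 99 in all, with Klf4 at 12, Nr5a2 and Ppargc1a at 7 and Klf5 at 6. Hnf4a itself had 2 sites, 13.3 and 24.5 kb from a TSS, both with H3K27ac in all 23 lists and without a core. Hnf4g had 3, of which 2 held a core. Among the listed factors without a site were Cdx1 and Foxa3.

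In the list of cell junctions and keratins 29 of 32 genes had a site, led by Epcam with 6, Tjp1 with 5 and Cldn23 with 4. Tmprss2, a membrane protease that the list also holds, had 5. The brush border list had 21 of 29, with 8 sites each at Myo5b and Mep1b, 7 at Eps8 and 6 at Vil1. Myo5b is a motor of apical transport, Mep1b a metalloprotease of the brush border, and Eps8 and Vil1 bundle the actin of microvilli. None of the Myo5b sites held a core, and 4 of the Mep1b sites did. Ion and water transport had 19 of 32, with Slc26a3 at 8, the phosphate carrier gene Slc20a1 and the sodium pump subunit gene Atp1b1 at 7, and Aqp8 at 6.

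Xenobiotic metabolism and efflux had 25 of 40, with 4 sites each at Nr1i2, the pregnane X receptor, at Cyp2c55, at Abcc3 and at Aldh1a1. Lipid uptake and oxidation had 20 of 37, with 6 sites at Apob, 4 at Plin2 and Fabp2 and 3 at Ehhadh. The Apob sites reached from 0.08 kb to 341 kb from a TSS, and Apoa1, Apoa4, Apoc3 and Mttp, which act with Apob in lipoproteins, had none. In lists of other cells of the colon a site was found at 3 of 8 goblet cell markers (Spink4, Agr2 and Atoh1), 3 of 8 enteroendocrine, 2 of 8 stem and proliferating cell, 2 of 8 adipocyte markers (Plin1 and Cidec), and 1 of 8 each for smooth muscle (Actg2), mesothelium (Upk1b), fibroblast (Dcn) and leukocyte (Coro1a) markers. The Actg2 and Upk1b sites lay 3.59 and 18.9 kb from a TSS, with H3K27ac in 22 and 11 of 23 lists. The Dcn site lay at −399.9 kb (upstream) with H3K27ac in 8 lists, and the Coro1a site at −22.6 kb with H3K27ac in 1. The study names Fmo1, Fmo2, Scd1 and Sulf2 for more HNF4α binding and lower expression in HFDHFB than in HFDLFB. Its RNA-seq samples are those used here, but its HNF4α libraries of recipients are not. In the long-term diet libraries used here, Scd1 and Sulf2 had 2 sites each and Fmo1 and Fmo2 were nearest to none.

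Genes with more sites had higher expression in the colons of the recipients. H3K27ac, which marks active enhancers and promoters, was required at every site. The study reports that expression generally rose with the number of active enhancers of a gene. The parts of HNF4α and of H3K27ac in the levels below cannot be told apart here. Reads per kilobase of exon, scaled to library size (RPKM), were taken on the log2 scale, and the median over genes was formed in each of the 12 libraries. It was 1.75 ± 0.0639 (SD, n = 12) for 10109 genes without a site, 2.89 ± 0.0573 for 2322 genes with 1, 3.49 ± 0.0853 for 804 genes with 2, 4.10 ± 0.149 for 630 genes with 3 to 5 and 4.28 ± 0.225 for 122 genes with more. The ranges over libraries of the last pair overlapped, from 3.82 to 4.35 and from 3.87 to 4.57, and the other classes did not overlap. Genes with a site stood 1.53 ± 0.125 log2 units above genes without (SD over 12 libraries). With the genes split by level into 10 classes of equal size, 12.3% of the lowest class and 49.0% of the highest had a site. Of the genes nearest to the most sites, Klf4 had a median of 8.12 log2 RPKM over the libraries, Klf6 6.22, Klf3 6.09 and Atp2b1 5.38, whereas Tbc1d1 had 2.67.

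**Figure D3:**
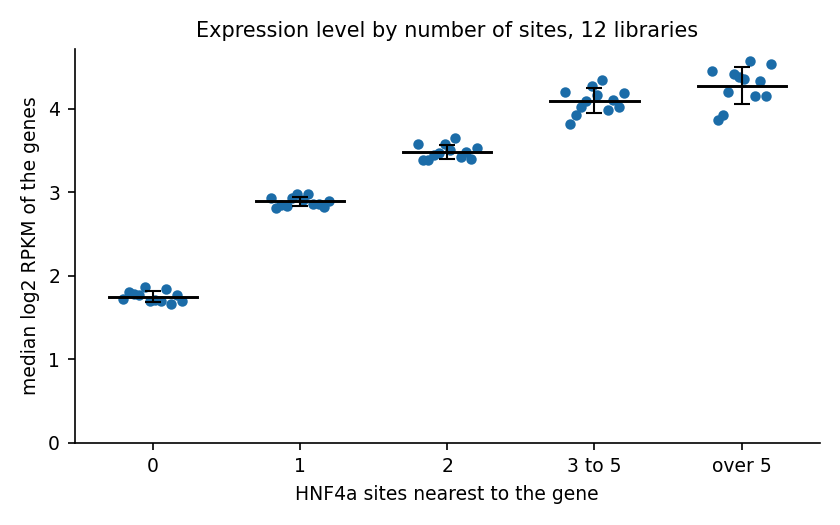
Median log2 RPKM (y axis) of genes with 0, 1, 2, 3 to 5 and over 5 HNF4α sites (x axis). Points are the 12 RNA-seq libraries, bars their mean and SD. Means rise from 1.75 to 4.28.

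The marks were compared between groups by the share of the 8272 sites with a peak, library by library. The H3K27ac lists compared here had also served to choose the sites. That choice left out the 222 sites without H3K27ac in any list, which changes the share of every library by the same factor. In males H3K4me1 covered 95.4%, 94.1% and 95.6% of the sites on the HFD and 95.6%, 95.9% and 95.8% on the LFD. The means of 95.05% ± 0.787 and 95.7% ± 0.165 (SD, n = 3) did not differ beyond the spread (two-sided exact permutation test, p = 0.2, where 3 against 3 cannot go below 0.1). Females had 95.2% ± 0.109 and 95.04% ± 0.133 (n = 3, exact permutation test, p = 0.3). H3K27ac in males was at 88.2%, 93.8% and 94.6% on the HFD and 93.0%, 90.2% and 90.4% on the LFD (n = 3, exact permutation test, p = 0.8).

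In females the H3K27ac shares did not overlap between the diets. They were 92.0%, 92.5% and 90.9% on the HFD and 86.6%, 88.0% and 89.3% on the LFD, a difference of 3.84 percentage points at the smallest p the design allows (n = 3, exact permutation test, p = 0.1). The HFD lists of females also held more peaks in all, 41573 on average against 39076, and 1-library sites moved by 4.85 points. The part of peak number in the difference was not tested.

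Among recipients, HFDHFB had H3K27ac at 87.5% and 91.3% of the sites and HFDLFB at 89.6%, 88.6% and 89.6%, so that the former lay on both sides of the latter (exact permutation test, p = 1). LFDHFB stood at 83.9%, 82.0% and 83.9% and LFDLFB at 89.5%, 84.8% and 81.8% (exact permutation test, p = 0.5). Pooled over both donors, which was decided after the values were seen, HFD-fed recipients lay 5.0 points above LFD-fed recipients (diets exchanged within each donor, exact permutation test over 200 assignments, p = 0.01). The difference was 6.09 points with HFB and 3.91 with LFB. HFD-fed libraries spanned 87.5% to 91.3% and LFD-fed 81.8% to 89.5%, and the overlap came from LFDLFB replicate 1. The same difference over 1-library sites was 6.57 points (exact permutation test, p = 0.01), so it was not particular to sites bound in all 4 libraries. The HFD-fed lists held 42486 to 51873 peaks and the LFD-fed lists 39684 to 45797, and the part of this in the difference was not tested.

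**Figure D4:**
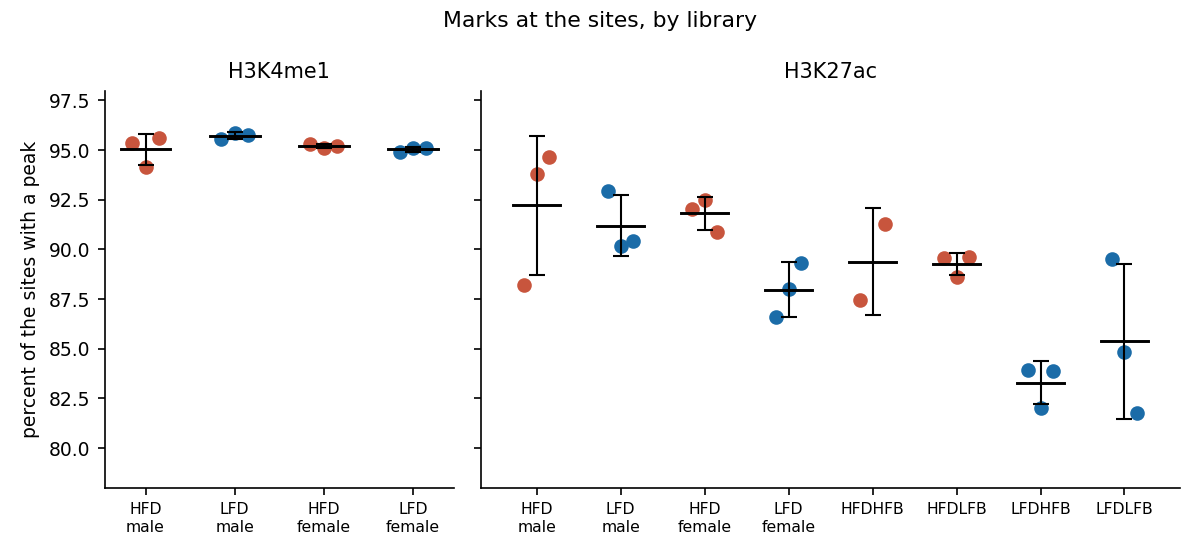
Percent of the 8272 sites with an H3K4me1 (left) or H3K27ac peak (right), on a y axis that starts at 78. Points are libraries, orange for HFD and blue for LFD mice, with mean and SD per group. H3K4me1 stays between 94.1% and 95.9%, while H3K27ac ranges from 81.8% in LFDLFB to 94.6% in HFD males.

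Few single sites separated a pair of groups completely. Sites with H3K27ac in every library of a group and in none of the other numbered 14 for HFD males (0.228% of all 49525 HNF4α sites did so) and 3 for LFD males (0.0505%). The 3 were nearest to Tex2, Myc and Pcgf5, named after their values were seen. HFD females had 25 (0.408% of all sites) and LFD females 3, nearest to Apoh, Unc5cl and Chn2 (0.0444%). The 25 included a site 60.4 kb upstream of Sulf2, a sulfatase of heparan sulfate. HFDHFB had 30 (0.466%), HFDLFB 30 (0.374%), LFDHFB 9 (0.0989%) and LFDLFB 29 (0.258%). The HFDLFB sites included 1 each nearest to Ppara (18.3 kb from a TSS), Klf6 (240 kb) and Slc27a2 (−0.455 kb, upstream). As shares of the 8272 sites these are 0.0363% to 0.302% in the long-term groups, below the background, and 0.109% to 0.363% in recipients, near the background.

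For H3K4me1, 1 site was listed in all HFD males and no LFD male, nearest to Spata1 (0.0525% of all sites). In LFD males but not in HFD males 5 were listed (0.182%), nearest to H2-K1, Tbl1xr1, Bcas2, Hyou1 and Usp9x. Between females, 7 were listed on the HFD and not on the LFD (0.222%), and 6 the other way round (0.0989%). As shares of the 8272 sites these counts are 0.0121%, 0.0604%, 0.0846% and 0.0725%, each below the bracketed share over all HNF4α sites. Each of the 6 male sites was also listed in females, with 4 to 9 of the 12 lists in all, and each of the 13 female sites but 1, at Wdr82, also in males. All 13 of these female sites were within 0.607 kb of a TSS and carried H3K27ac in all 23 lists.

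Expression of the genes with a site was compared between recipient groups by edgeR's quasi-likelihood test over 15893 genes, of which 3878 had a site. In bulk RNA, fewer cells of a type and less RNA per cell cannot be told apart. At an adjusted p under 0.05 edgeR called no gene with a site and 0% of all genes in each of the 5 comparisons. At an unadjusted p under 0.05, HFDHFB against HFDLFB gave 303 of the 3878 genes (9.07% of all genes), LFDHFB against LFDLFB 156 (3.72%), their interaction 384 (11.3%), HFDHFB against LFDHFB 262 (7.46%) and HFDLFB against LFDLFB 185 (5.33%). As shares of the 3878 genes these are 7.81%, 4.02%, 9.90%, 6.76% and 4.77%, each near or below the background. DESeq2, the other tool run, called 18 genes with a site in the first comparison (0.503% of all genes), none in the second (0.00629%), 21 in the interaction (0.604%), 40 in HFDHFB against LFDHFB (0.925%) and 3 in HFDLFB against LFDLFB (0.0692%). The 18 and the 40 genes are 0.464% and 1.03% of the 3878. The comparisons share libraries: each group enters 2 of the 4 pairwise ones, and all groups the interaction.

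The 18 genes of HFDHFB against HFDLFB, 5 higher and 13 lower by DESeq2, are not called by edgeR (adjusted p = 0.495 for each). The 5 were Hnrnpa0, Kpna2, Ube2c, Dad1 and Tk1, named after their values were seen. Ube2c, a ubiquitin-conjugating enzyme of mitosis, had 25.4, 22.5 and 22.0 CPM in HFDHFB and 5.95, 9.87 and 14.8 in HFDLFB, with a site 0.251 kb from its TSS (edgeR log2 fold change 1.19 ± 0.293 SE). Tk1, the thymidine kinase of dividing cells, had 13, 18.01 and 14.4 against 4.74, 8.15 and 8.57. The groups did not overlap in either gene. The summed CPM of the 8 stem and proliferating cell markers ran from 172 to 295 in HFDHFB and from 81.1 to 201 in HFDLFB, with none of the 8 at 0, and its part in these differences was not tested.

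Among the 13 lower genes were Dcn and Podn, of connective tissue, and Acsl1, which activates long-chain fatty acids. The single site of Dcn lay 399.9 kb from its TSS and that of Podn 0.691 kb. Acsl1 had 50.5, 47.2 and 39.0 CPM in HFDHFB and 81.7, 172 and 77.4 in HFDLFB, with its single site 21.6 kb away (edgeR log2 fold change −1.28 ± 0.318 SE). Podn had 2.12, 4.65 and 4.32 against 14.1, 18.1 and 4.82. In both genes the groups did not overlap, and HFDLFB replicate 3 was the lowest of its group. The 8 adipocyte markers summed to 37.4 to 406 CPM in HFDHFB and 337 to 2898 in HFDLFB, and the 7 mesothelium markers tested to 49.7 to 102 and 97.5 to 505, with none of either list at 0. The 8 fibroblast markers, of which Dcn is 1, summed to 547, 706 and 527 CPM in HFDHFB and 1341, 1421 and 539 in HFDLFB, with none at 0. The 8 epithelium markers summed to 13081 to 15633 and 10755 to 13928 CPM. The part of these cells in the differences was not tested.

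Of the genes the study names for HNF4α, Scd1, a stearoyl-CoA desaturase, had 30.5, 135 and 54.2 CPM in HFDHFB and 469, 853 and 85.2 in HFDLFB, groups that overlapped (edgeR log2 fold change −2.68 ± 1.08 SE, adjusted p = 0.506). In LFDHFB its values were 76.1, 369 and 2093, the last from the third replicate. The adipocyte markers summed to 37.4, 406 and 201 CPM in HFDHFB, 1188, 2898 and 337 in HFDLFB and 38.8, 349 and 961 in LFDHFB. Within each of these groups the order was that of Scd1. In LFDLFB the orders differed, with Scd1 at 242, 362 and 264 CPM and the markers at 224, 187 and 98.3. The part of adipocytes in the Scd1 differences was not tested. DESeq2 counted Scd1 among the 40 genes of HFDHFB against LFDHFB at an adjusted p of 0.0375. Sulf2 had 10.7, 17.5 and 11.8 CPM against 24.4, 34.5 and 11.4 (edgeR adjusted p = 0.598). Fmo1 and Fmo2, flavin monooxygenases without a site, had log2 fold changes of −1.18 and −2.51 (edgeR adjusted p = 0.495 for both). Hnf4a had 1289, 942 and 1181 CPM in HFDHFB, 1147, 1171 and 1370 in HFDLFB, 1267, 1497 and 965 in LFDHFB and 1436, 1153 and 1287 in LFDLFB, so every group overlapped every other. Hnf4g had 46.5, 31.2 and 28.3 CPM in HFDHFB and 29.2, 42.3 and 56.4 in HFDLFB.

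The other DESeq2 calls fell on genes with few sites in most cases. In HFDHFB against LFDHFB 24 were higher and 16 lower. The lower ones included Slc2a5, the fructose transporter, with 5.85, 8.31 and 6.68 CPM in HFDHFB and 14.1, 13.9 and 14.9 in LFDHFB (DESeq2 adjusted p = 0.000529, edgeR adjusted p = 0.299). Atp2b1, with 11 sites, had 306, 172 and 196 CPM in HFDHFB and 380, 365 and 524 in LFDHFB (DESeq2 adjusted p = 0.0328, edgeR adjusted p = 0.339). Both genes were separated between these groups. The 3 genes of HFDLFB against LFDLFB were Esr1, Sucnr1 and Angptl4. Angptl4, an inhibitor of lipoprotein lipase with 2 sites that both hold a core, had 16.6, 21.8 and 8.06 CPM in HFDLFB and 2.52, 0.372 and 0.526 in LFDLFB (DESeq2 adjusted p = 0.0149, edgeR adjusted p = 0.881). The adipocyte markers, none at 0, summed to 1188, 2898 and 337 CPM in HFDLFB and to 224, 187 and 98.3 in LFDLFB. They were separated between these groups as Angptl4 was, and their part in its difference was not tested.

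Over all genes with a site the median log2 fold change of HFDHFB against HFDLFB was −0.06, beside 0.00 over all genes tested (−0.0592 and −0.00189), and 1566 of the 3878 were above 0. The median went down with the number of sites: 0.02 for genes with none, −0.03 with 1, −0.07 with 2, −0.11 with 3 to 5 and −0.18 with more. In HFDHFB against LFDHFB it went from −0.01 with none to −0.22 with more than 5 sites. In LFDHFB against LFDLFB all classes lay between 0.02 and 0.04. These are medians of small shifts of many genes and were not tested.

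The shift was not shared by all libraries of a group. Relative to each gene's mean over the 12 libraries, genes with 3 or more sites had median deviations of 0.07, −0.23 and −0.12 in HFDHFB replicates 1, 2 and 3, and of −0.04, −0.03 and 0.13 in HFDLFB. HFDHFB replicate 1 thus lay above HFDLFB replicates 1 and 2, and the groups overlapped. LFDHFB had 0.04, 0.21 and −0.09 and LFDLFB 0.07, −0.09 and 0.12. The summed CPM of the 8 smooth muscle markers, of which only Actg2 had a site and none was at 0, was 1940, 4866 and 6976 in HFDHFB and 4870, 2260 and 1081 in HFDLFB. It was 2336, 2056 and 5311 in LFDHFB and 2652, 4564 and 2204 in LFDLFB. The 5 libraries with the highest sums all had negative deviations, and of the other 7 all but HFDLFB replicate 2 had positive ones. The 8 epithelium markers, among them Epcam and Vil1 with sites, summed to 15633, 13081 and 13727 CPM in HFDHFB and 12833, 10755 and 13928 in HFDLFB. They summed to 14046.5, 16263 and 10639 in LFDHFB and 14761, 14590.5 and 15177 in LFDLFB. The 5 libraries with the lowest of these sums all had negative deviations, and of the other 7 all but LFDLFB replicate 2 had positive ones. The parts of smooth muscle and of epithelium in the shift were not tested. With single libraries left out in turn, the median of the genes with a site in HFDHFB against HFDLFB ranged from −0.11 to −0.01.

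**Figure D5:**
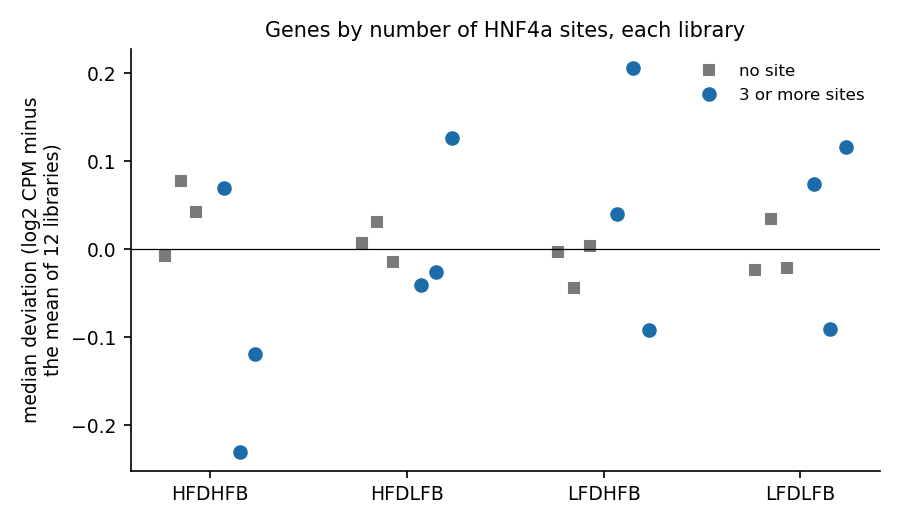
Median deviation of log2 CPM from the mean of the 12 libraries (y axis) for genes with no HNF4α site (squares) and with 3 or more (circles), by recipient group (x axis), 1 point per library. HFDHFB libraries run from −0.23 to 0.07 and HFDLFB libraries from −0.04 to 0.13 for genes with 3 or more sites.

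Named groups of genes were described by the same comparison. Of the 30 intestinal transcription factors with a site 18 were lower in HFDHFB than in HFDLFB, with a median log2 fold change of −0.11, against −0.10 over all 35 of the list, and none was called by edgeR. The 21 brush border genes had 17 lower and a median of −0.11, the 25 xenobiotic genes 19 lower and a median of −0.16, the 20 lipid genes 13 lower and −0.13, and the 19 ion and water transport genes 13 lower and −0.13. Over all tested genes of these lists, with or without a site, the medians were −0.14 for brush border, −0.10 for xenobiotic, −0.00 for lipid and −0.13 for ion and water transport. Cell junction and keratin genes stood on the other side of 0, with 13 of 29 lower and a median of 0.04, against 0.05 over the list.

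Markers of other cells with a site had larger values in both directions, none of them called by edgeR. The median log2 fold change was 0.60 over the 3 goblet cell genes, 0.22 over the 3 enteroendocrine genes, 0.62 over the 2 stem and proliferating cell genes and 0.78 for Actg2 of smooth muscle. It was −3.11 over the 2 adipocyte genes, −1.89 for Upk1b of mesothelium, −1.67 for Dcn of fibroblasts and −0.11 for Coro1a of leukocytes. Over whole lists it was 0.59 for goblet cell, 0.32 for enteroendocrine, 0.64 for stem and proliferating cell and 0.77 for smooth muscle markers. For adipocyte markers the list median was −3.08, for mesothelium −2.37, for fibroblast −0.15 and for leukocyte markers −0.29. Dcn thus lay far below the median of its list.

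Single genes of the lists varied between libraries. Slc26a3 had 2465, 1453 and 2171 CPM in HFDHFB and 1886, 2566 and 3337 in HFDLFB. In LFDHFB it had 3844, 4115 and 973, so that replicate 3 stood below the rest, as it did for Aqp8 with 1117, 1866 and 227. Klf3 had 168, 116 and 136 CPM in HFDHFB and 176, 179 and 198 in HFDLFB, which did not overlap (edgeR adjusted p = 0.605). Nr3c2, also with many sites, was separated between the groups too, at 146, 103 and 138 against 150, 167 and 193 (edgeR adjusted p = 0.548). Apob, at 390, 183 and 291 against 231, 360 and 384, and Vil1, at 906, 692 and 762 against 905, 662 and 869, overlapped.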

How the data were processed

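ChIP-seq of HNF4α, H3K27ac and H3K4me1 (4, 23 and 12 libraries) and RNA-seq of recipients (12 libraries) were used, of 84 samples in the series. The authors deposited 1 peak list per ChIP-seq library, called by HOMER for HNF4α and by SICER for histone marks on mm9, with positions only and no score, so that the depth of ChIP-seq libraries is unknown. The 4 HNF4α lists hold 21308 to 27766 peaks of 1 width each, 220 to 242 bp. They also deposited raw read counts per gene, from STAR 2.5 and featureCounts 1.5.0-p1 (strand setting not given in the sources used here), with totals of 39904191 to 48026846. Per the submitters' processing notes Bowtie 0.12.8 and Picard 1.110 were used for ChIP-seq.

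Sites, nearest TSS of protein-coding transcripts (GENCODE vM1, NCBIM37) and marks were computed in Python 3.11.15 with pysam 0.24.0, on peaks overlapping by at least 1 bp. Of 1989023 peaks read, 1 lay outside the reference chromosomes. Motifs were searched on both strands: for CDX the spelling TTTATGG or, as its other form, TTTATTG, for AP-1 the spelling TGACTCA, for KLF the spellings GGGTGTGG and GGGCGTGG, for GATA the spelling AGATAA, for HNF1 the spelling GTTAATNAT, for FOXA the spelling TGTTTAC, and for ETS the spelling CAGGAAG or, as its other form, CCGGAAG. Counts were fitted in edgeR 4.0.16 (TMM, filterByExpr, 4 groups in 1 fit, Benjamini-Hochberg adjustment), and DESeq2 1.42.0 was an alternative. RPKM used exon-union lengths and a prior count of 2. CPM values are TMM-scaled. Of the 4692 genes nearest to a site 4169 matched a row of the count table by symbol, and 7417 sites are nearest to such a gene. Single libraries were compared by exact permutation, and what separates replicates beyond their labels is not given, so p-values measure the spread between these libraries.

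Named genes were the 10 with the most sites, up to 4 of each list by number of sites, genes called by edgeR with separated groups (there were none), and Hnf4a, Hnf4g, Fmo1, Fmo2, Scd1 and Sulf2. Genes named for DESeq2 calls or for separated marks, list genes named as without a site, and the epithelium list were added after the values were seen. The sites, lists and tests were chosen with earlier results of these data known. Steps were tested on simulated peaks and counts. Input libraries, which are the other samples of the series, were not analysed here. Alternatives covered the overlap, H3K27ac lists required, gene starts, motif window, normalization, filter, tool, leaving out each library, and a block for the replicate number.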

Additional observations from a re-analysis of the deposited data

Results flagged for a closer look

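The difference between HFD and LFD in H3K4me1 at the sites had opposite signs in the sexes. It was set against exchanges of diet within each sex, which take diet to have no effect in either. A small p therefore does not by itself show that the diet effect differs between the sexes. Neither sex passed alone (exact permutation tests, p = 0.2 in males and p = 0.3 in females). HFD minus LFD was −0.68 percentage points in males and 0.16 in females, a difference of 0.842 points (exact permutation test with diets exchanged within each sex, 400 assignments, p = 0.035). Over 1-library sites the signs were the same, and HFD minus LFD was −1.85 points in males and 0.72 in females. The pattern was therefore larger there and not particular to sites bound in all HNF4α libraries. The lists held 76684 peaks on average in HFD males and 78149 in LFD males, and 76123 and 72967 in females, and the part of peak number was not tested. The difference is small beside the shares themselves, which lay between 94.1% and 95.9%, and HFD male replicate 2 had the lowest of all. Without that library the male difference was −0.23 points, and the difference between the sexes was not recomputed. The same exact permutation test gave 2.80 points for H3K27ac between the sexes (p = 0.325) and 2.18 points for the effect of the bacteria between the diets of recipients (p = 0.465). These p-values were not adjusted for the number of differences tested.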

How the results depend on the processing

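Of 226 recomputed values, 210 stayed within the replicate spread, or the 1.5-fold margin for counts, and kept their side of the threshold. Leaving out libraries turned 3 differences in the H3K27ac share: HFD against LFD males fell to −0.169 points without HFD replicate 3, and HFDHFB against HFDLFB to −1.81 without HFDHFB replicate 2 and to −0.236 without HFDLFB replicate 2. None of these passed a test before or after.

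The share of sites with a core was 24.6% with H3K27ac required in at least 12 lists, 21.9% in a window of 100 bp, and 23.99% to 24.9% with single HNF4α libraries left out, which also raised the number of sites to 8754 to 10201. The share within 5 kb of a gene start was 28.8% with H3K27ac in at least 12 lists, and 24.6% with the gene starts of the count table. The level difference of 1.53 became 1.88 for sites within 10 kb and 3.40 without a filter on low counts. It was 1.55 to 1.58 with single libraries left out, where the filter was applied anew. DESeq2 called 18, 21, 40 and 3 genes where edgeR called 0 (HFDHFB against HFDLFB, the interaction, HFDHFB against LFDHFB, HFDLFB against LFDLFB), and the cause was not tested. Left-out libraries moved the male and female H3K27ac differences from −0.169 to 3.04 and 3.15 to 4.53, those of bacteria on the HFD and LFD from −1.81 to 1.99 and −3.89 to −0.0181, and the H3K4me1 differences from −0.963 to −0.232 and 0.0846 to 0.216. The difference between HFD-fed and LFD-fed recipients, added after the data were seen, ranged from 4.05 to 6.03 points (p = 0.01 to p = 0.04, exact permutation test).

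The replicate numbers do not pair the libraries: same-numbered RNA-seq libraries correlated from −0.591 to 0.451 in their deviations, over 0.1 in 6 of 18 pairs. With a replicate block edgeR called 0 genes with a site in every comparison, the median of HFDHFB against HFDLFB was −0.07, and the mark differences were −0.681 and 0.161 points for H3K4me1 in males and females, 1.04 and 3.84 for H3K27ac, and 0.272 and −2.09 for bacteria on the HFD and LFD, with no call changed.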
